A study of Homo sapiens with 3 samples.

Results

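The gene set described here holds the strongest signals common to 3 cell lines of Hodgkin's lymphoma (HL). Its members are transcript clusters, the units in which an exon array summarises the probes along the exons of a gene. They were chosen by their own signal intensities, as the clusters with at least 1 gene symbol and an intensity above 200 in every line, and were ordered by the lowest of their 3 values. The rule gave 162 of 16840 named clusters (0.962%), out of 22011 clusters in all. Since the rule used the intensities, how high the members are is a description and carries no test.

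RNA of L-428, HDLM-2 and L-540, established lines of HL cells, was extracted with Trizol, and each was hybridized to 1 Affymetrix Human Exon 1.0 ST array. The sample descriptions mention vorinostat, an inhibitor of histone deacetylases, for L-428 and HDLM-2 and no agent for L-540, whereas the methods of the paper name none for these arrays. No second array of a line, untreated partner or normal cell was analysed here. The number of arrays limits the precision, no replicate error can be given, and array error, line and treatment cannot be told apart. Where a line is called highest, lowest or apart below, this describes its 1 array and no trait of the line.

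Genes with a strong signal in every growing cell commonly serve the cytoskeleton, glycolysis, the ribosome and the respiratory chain. HL cells of B cell origin are known to have lost much of the B cell program, while they keep genes that present antigen to helper T cells and genes of cytokine signalling. The lineage of each line was not examined here, so low signals of B cell genes are not read as such a loss. An intensity, given here on the linear scale without unit, depends also on the probes of a cluster, so the order of the members is one of signals and not of RNA amounts.

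Of the members, 132 were paired with 1 gene and 30 with several genes, in which case the signal cannot be assigned to one of them. The lowest of the 3 values was above 1000 for 19 members and above 2000 for 4, with a median of 338. A further 458 clusters without a symbol also exceeded 200 in every line, so that named clusters were 162 of 620 and only 3 of the first 20. Taken 1 line at a time, 1.57% of the named clusters exceeded 200 in HDLM-2, 1.69% did in L-540 and 2.83% did in L-428. Of the 196 named clusters above 200 in both L-428 and HDLM-2, 162 (82.7%) were also above it in L-540. The corresponding share was 84.8% of 191 for L-428 and 74.3% of 218 for HDLM-2. The members held 9.76% of the summed intensity of all clusters for L-428, 10.9% for L-540 and 11.9% for HDLM-2.

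The threshold cut through a continuous range of signals. Just inside it were CRTAP, POLR2K, STT3A, TFDP1/TFDP3 and F8A1/F8A2/F8A3, whose lowest values ran from 208 down to 202. Just outside it were CAPNS1, GNAS, GNAI2, PCBP1 and UBB, whose lowest values ran from 198 down to 196. UBB, a ubiquitin gene, had 196 in HDLM-2, then 254 in L-540, up to 599 in L-428. A single line thus kept UBB out of the set.

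The strongest named signals came from clusters paired with mitochondrial genes, some of them shared with nuclear genes, and from actin, a linker histone and lactate dehydrogenase. The first member was a cluster paired with the mitochondrial gene ND1 and the nuclear genes HNRNPM and DYNC1I2, with 3802 in L-540, then 3824 in L-428, up to 4380.1 in HDLM-2. ACTB, which encodes beta actin of the cytoskeleton, followed with 2881 in L-540, then 3022 in L-428, up to 3439.9 in HDLM-2. The values of the 3 lines lay close together in both clusters. The fourth member, H1-4, encodes a linker histone that binds DNA between nucleosomes and had 2011 in L-428, then 2579 in L-540, up to 3131 in HDLM-2. LDHA encodes the subunit of lactate dehydrogenase that favors lactate formation and had 1920.0 in HDLM-2, then 2873 in L-540, up to 2877 in L-428. In LDHA, HDLM-2 stood below the other lines, which were nearly equal. When the members were ordered by the geometric mean, 22 of the first 25 remained among the first 25, and with the median 19 remained.

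**Figure D1:**
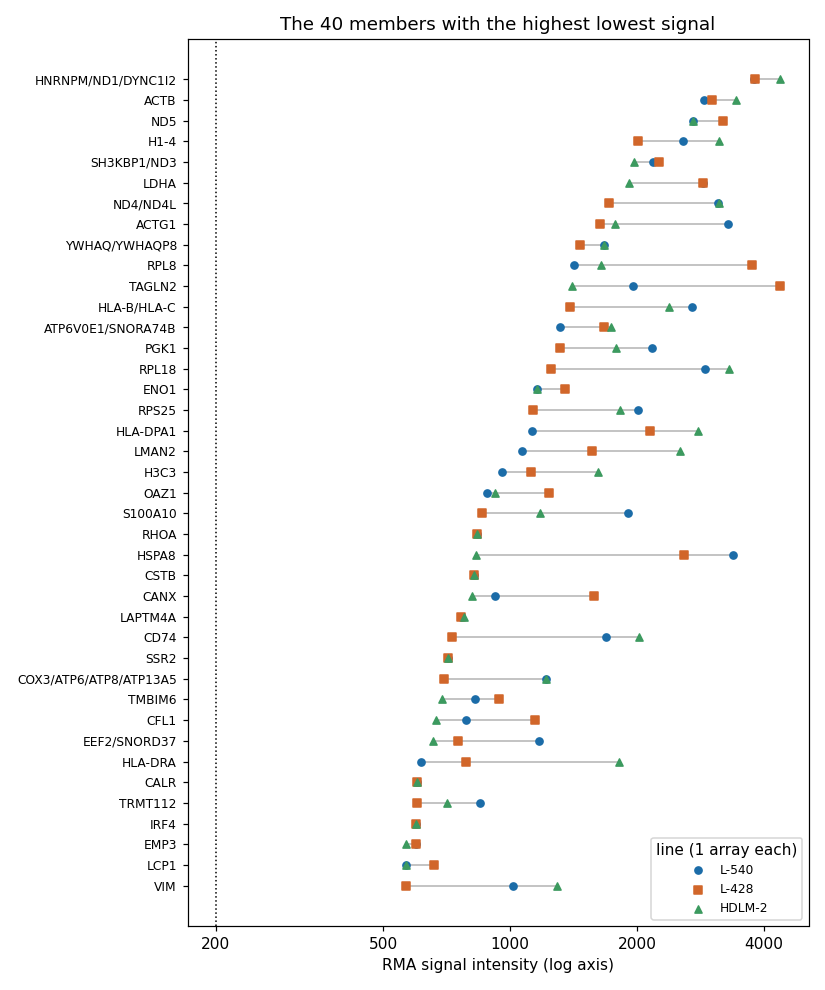
RMA signal intensity (log axis) of the 40 members with the highest lowest signal, with 1 point per line and array, a grey bar from the lowest to the highest and a dotted line at 200. ACTB spans 2881 to 3439.9, while HSPA8 spans 829.5 to 3387.

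The spread between lines was narrow for some members and wide for others. The ratio of the highest to the lowest intensity of a member had a median of 1.84, with quartiles of 1.30 and 2.69 and a range from 1 to 11.0. It was at most 1.5 in 54 members (33.3%) and at most 2 in 89 (54.9%), and it exceeded 4 in 13 (8.02%). By rank, the median ratio was 1.73 in the first 54 members, 2.05 in the next 54 and 1.93 in the last 54. The lowest value was found in L-428 alone for 52 members, in HDLM-2 alone for 47 and in L-540 alone for 36, and it was shared by lines for 27. The highest value was found in L-428 alone for 69 members, in HDLM-2 alone for 40 and in L-540 alone for 30. The highest lines named below are to be read beside these counts. The array of L-428 also had the highest median over all clusters, 9.18. A ratio over 2 lines is smaller by construction than one over 3. When the rule was applied without L-428, the median ratio was 1.22, against 1.47 without L-540 and 1.47 without HDLM-2. Over the 162 members themselves, L-540 and HDLM-2 differed by a median ratio of 1.21, L-540 and L-428 by 1.5 and L-428 and HDLM-2 by 1.61.

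Equal values account for a share of the narrow ratios. All 3 intensities were identical in 9 members and a pair of them was equal in 32. Such ties stand in the deposited values, and equal expression is not read from them. The identical members were RHOA with 836, CSTB with 822, CALR with 601, IRF4 with 598, GNB1 with 365, the cluster of MIF and SLC2A11 with 308, SUMF2 with 258, H3C10 with 246 and CRTAP with 208. Among the 121 members with 3 distinct values the median ratio was 2.10, with 22 within 1.5-fold and 51 within 2-fold. Ties were more common outside the set, where 6562 of 16678 named clusters (39.3%) were identical in all lines against 5.56% of the members. The median ratio of these other clusters was 1.12 with ties and 2.27 over the 5561 with 3 distinct values. In the 243 named clusters whose lowest value lay between 100 and 200, the median ratio was 1.49. Among clusters with 3 distinct values, 10.7% of the members and 24.5% of the other named clusters exceeded 4-fold. In the same order, 18.2% and 23.3% of these clusters lay within 1.5-fold, and 42.1% and 43.1% lay within 2-fold. With ties included, 8.02% of the members and 8.69% of the other named clusters exceeded 4-fold. Then 33.3% of the members and 67.96% of the others lay within 1.5-fold, and 54.9% and 78.1% lay within 2-fold. All values of a member are above 200 by the rule, which limits how far the lowest can fall, so these figures are given side by side without a test.

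The narrowest ratio among members with 3 distinct values was that of PCBP2, an RNA-binding protein of the poly(C) family, with 273 in L-428, then 287 in HDLM-2, up to 299 in L-540. PCBP2 was the only such member within 1.1-fold. The mitochondrial clusters of ND3 and ND1, TAF10, ACTB, TMEM123, PSMB4, ELOVL1, CAPZA1 and MDH2 followed, with ratios from 1.14 to 1.25. TAF10, a subunit of the general transcription factor TFIID, had 430.0 in L-540, then 502 in HDLM-2, up to 509.6 in L-428. PSMB4, a subunit of the proteasome core, had 238 in L-540, then 262 in HDLM-2, up to 291 in L-428. CAPZA1, a subunit of the protein that caps actin filaments, had 374 in L-540, then 382 in HDLM-2, up to 466 in L-428. The genes with the narrowest ratios thus serve different functions, from transcription and protein breakdown to the citric acid cycle, in which MDH2 acts.

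The widest ratio was that of ID2, which encodes an inhibitor of the E proteins, transcription factors of early B cells. ID2 had 257 in L-428, then 1936 in L-540, up to 2839.7 in HDLM-2, with L-428 far below the other lines. ARPC2, a subunit of the Arp2/3 complex that branches actin filaments, had 209.6 in HDLM-2, then 927 in L-540, up to 2145 in L-428. FSCN1, which encodes the actin-bundling protein fascin, had 217 in L-540, then 697 in HDLM-2, up to 2075 in L-428. The lowest value of these 3 genes was at most 257, and it fell in a different line for each. MALAT1, a nuclear long non-coding RNA, had 362 in HDLM-2, then 423 in L-428, up to 2179 in L-540, so L-540 stood apart. PA2G4, a growth-regulated protein that binds RNA, had 515 in HDLM-2, then 554 in L-540, up to 2702 in L-428, so L-428 stood apart. AK3, an adenylate kinase of mitochondria, had 249 in L-428, then 416 in L-540, up to 1299.5 in HDLM-2, so HDLM-2 stood apart. The remaining ratios among the widest were 6.57 for the readthrough transcript CCZ1P-OR7E38P, 6.10 for ZNF706, 4.21 for the calcium-binding protein gene SRI and 4.13 for HLA-DPB1.

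**Figure D2:**
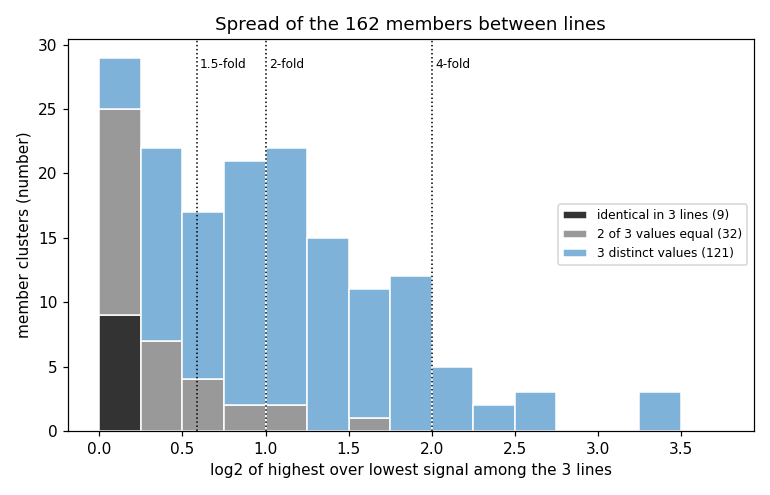
Number of members by the log2 ratio of the highest to the lowest of the 3 line signals, in bins of 0.25 and stacked by how many values are equal, with dotted lines at 1.5-fold, 2-fold and 4-fold. The 9 identical clusters and most of the 32 with a pair of equal values stand at the left, and 13 members lie beyond 4-fold.

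Function lists of gene symbols covered 109 of the 162 members. A cluster entered a list when any of its symbols matched, so the mitochondrial list includes clusters shared with nuclear genes. The mitochondrial list was also set apart only after values were seen, so its share is a description and no support. Against 0.962% of all named clusters, members made up 5 of 6 clusters of mitochondrially encoded genes (83.3%), 16 of 71 of the actin cytoskeleton (22.5%), 6 of 27 of glycolysis (22.2%), 6 of 30 of antigen presentation (20%) and 7 of 68 of cytosolic ribosomal proteins (10.3%). Of the aminoacyl-tRNA synthetases, which load amino acids on tRNA, 0 of 42 clusters were members, and 6 exceeded 200 in at least 1 line. Over all 16840 named clusters, 583 exceeded 200 in at least 1 line. At a share of 0.962% a list of 42 clusters can well hold no member, so the 0 is not read as a lack. Most clusters of these lists were far below the threshold, apart from the mitochondrially encoded genes. The median of the lowest intensity over all clusters of a list was 25.4 for glycolysis, 18.6 for the actin cytoskeleton and 11.2 for ribosomal proteins, against 6.91 over all named clusters.

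**Figure D3:**
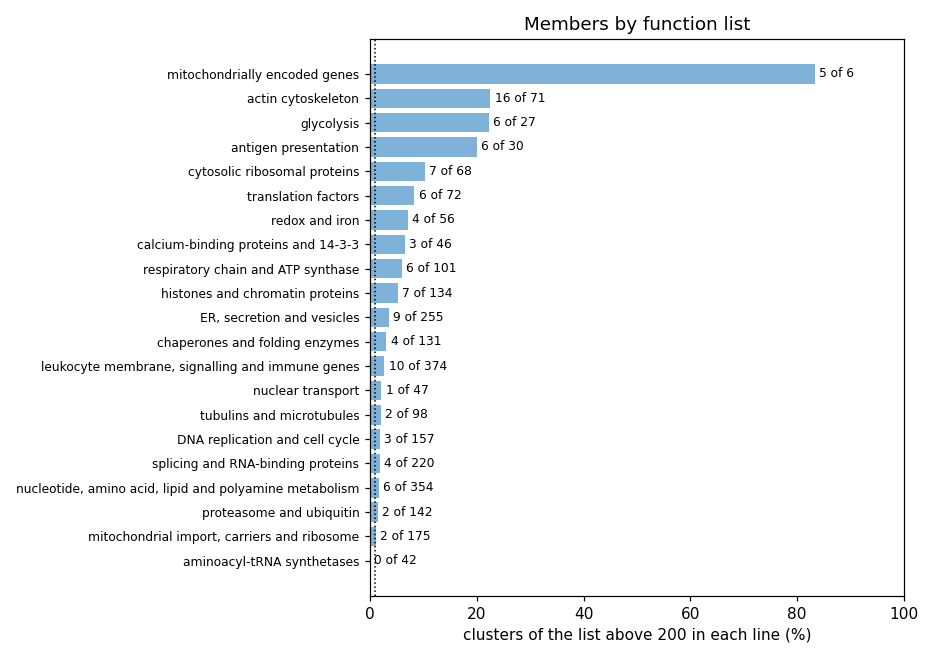
Share of the clusters of each function list with a signal above 200 in each line (%), with the counts beside the bars and a dotted line at the share of all named clusters, 0.962%. The mitochondrially encoded genes, some in clusters shared with nuclear genes, stand highest with 5 of 6, in a list set apart after values were seen. The aminoacyl-tRNA synthetases have 0 of 42, a list too small to set apart from the dotted line.

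Mitochondrial DNA encodes core subunits of the respiratory chain and of ATP synthase. ND5, a subunit of complex I, had 2715 in both L-540 and HDLM-2 and 3199.8 in L-428. The cluster of ND3, another subunit, and the nuclear gene SH3KBP1 had 1973 in HDLM-2, then 2184 in L-540, up to 2255 in L-428. The cluster of ND4 and ND4L had 1717 in L-428, then 3118 in L-540, up to 3137 in HDLM-2. The cluster paired with COX3, ATP6, ATP8 and the nuclear gene ATP13A5 had 699 in L-428 and 1220.0 in both L-540 and HDLM-2. The last pair had L-428 lowest, which was not so for ND5 and ND3, and the median ratio of the 5 mitochondrial members was 1.18. That median is the ratio of ND5, which has a pair of equal values, and 3 of the 5 members had 3 distinct values.

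Of the respiratory subunits encoded in the nucleus, 6 of 101 clusters were members, with a median ratio of 2.45. COX5B, a subunit of cytochrome c oxidase, had 322 in L-540 and 324 in both L-428 and HDLM-2. COX5A of the same enzyme had 329 in L-428, then 484 in L-540, up to 486 in HDLM-2. COX6B1, also of this enzyme, had 302 in L-428, then 395 in L-540, up to 708 in HDLM-2, whereas COX8A had 212 in L-540, then 279 in HDLM-2, up to 668 in L-428. The subunits of 1 enzyme thus differed in which line was highest. ATP5F1B, the beta subunit of ATP synthase, shares its cluster with small nucleolar RNAs and had 443 in HDLM-2, then 685 in L-540, up to 1134 in L-428. ATP5F1C, the gamma subunit, had 244 in HDLM-2, then 276 in L-540, up to 681 in L-428. In both ATP synthase clusters the order of the lines was the same. VDAC1, the channel of the outer membrane, had 239 in L-428 and 278 in both L-540 and HDLM-2. MDH2, the malate dehydrogenase of mitochondria, had 405 in L-540, then 411 in L-428, up to 505 in HDLM-2.

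Glycolysis was represented by 6 genes, which span the pathway from glucose 6-phosphate to lactate. GPI, which converts glucose 6-phosphate to fructose 6-phosphate, had 385 in L-428, then 589.6 in HDLM-2, up to 631 in L-540. ALDOA, the aldolase that splits the sugar, had 399.7 in L-428 and 426 in both L-540 and HDLM-2. PGK1, the kinase of the first step that yields ATP, had 1316 in L-428, then 1781 in HDLM-2, up to 2171 in L-540. All 6 genes, LDHA included, lay within 2-fold between lines, with a median ratio of 1.57, and 4 of them had 3 distinct values. ENO1, an enolase, had 1158 in both L-540 and HDLM-2 and 1352 in L-428. PKM, the pyruvate kinase, had 435 in HDLM-2, then 692 in L-540, up to 730.2 in L-428. The lowest line was L-428 for GPI, ALDOA and PGK1 and HDLM-2 for PKM and LDHA.

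The list with the most members was that of the actin cytoskeleton. ACTG1, which encodes gamma actin, a protein nearly identical to beta actin, had 1639 in L-428, then 1777 in HDLM-2, up to 3289 in L-540. TAGLN2, an actin-binding protein of the transgelin family, had 1403 in HDLM-2, then 1959.6 in L-540, up to 4367 in L-428. RHOA, a GTPase that drives actin stress fibers, had 836 in each line. CFL1, which encodes cofilin and severs filaments, had 668 in HDLM-2, then 786 in L-540, up to 1143 in L-428, and so had the same order of lines as PFN1. PFN1, which encodes profilin and supplies actin monomers, had 246 in HDLM-2, then 329 in L-540, up to 511 in L-428. TMSB10, a thymosin that binds actin monomers, had 541 in L-428, then 1842 in HDLM-2, up to 2201 in L-540. VIM, which encodes the intermediate filament protein vimentin and is placed in this list, had 565 in L-428, then 1017 in L-540, up to 1292 in HDLM-2. In TMSB10 and VIM, L-428 was the lowest line, and the ratio was 4.06 for TMSB10 and 2.29 for VIM. Several members are known from leukocytes. LCP1, the actin-bundling plastin of blood cells, had 566 in both L-540 and HDLM-2 and 658 in L-428. RAC2, a GTPase of hematopoietic cells, had 306 in L-428, then 498 in HDLM-2, up to 642 in L-540. The cluster of CORO1A, a coronin of leukocytes, had 288 in HDLM-2, then 532 in L-428, up to 807 in L-540. Of the 16 members, 6 lay within 2-fold and 14 had 3 distinct values. BRK1, a subunit of the WAVE complex that activates Arp2/3, was in no list and had 257 in both L-540 and HDLM-2 and 361 in L-428.

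Genes of antigen presentation had 6 members, with ratios from 1.64 to 4.13. CD74 encodes the invariant chain that guides HLA class II molecules, and HLA-DRA, HLA-DPA1 and HLA-DPB1 encode chains of these molecules. CD74 had 728 in L-428, then 1688 in L-540, up to 2026 in HDLM-2. HLA-DRA had 615 in L-540, then 785 in L-428, up to 1815 in HDLM-2. HLA-DPA1 had 1126 in L-540, then 2149 in L-428, up to 2789.7 in HDLM-2. HDLM-2 was the highest line in these genes, but L-428 was the highest in HLA-DPB1, which had 443 in L-540, then 1003 in HDLM-2, up to 1829 in L-428. The cluster shared by HLA-B and HLA-C, chains of class I, had 1389 in L-428, then 2379 in HDLM-2, up to 2703 in L-540. TAPBP, which helps to load peptides on class I molecules, had 355 in both L-540 and L-428 and 581 in HDLM-2. B2M, the partner chain of class I, was kept out by L-428, with 108 in L-428, then 349 in L-540, up to 356 in HDLM-2.

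The upstream sequence of CD74 from RefSeq (GRCh38.p14) is shown because CD74 stands for the class II pathway in this set. It covers 125 bases before the annotated start and the first transcribed base, 5′ to 3′ on the strand of the gene, with the CCAAT box, which begins 53 bases before the start, in capitals.
CD74 (chr5:150412910-150413035, minus strand): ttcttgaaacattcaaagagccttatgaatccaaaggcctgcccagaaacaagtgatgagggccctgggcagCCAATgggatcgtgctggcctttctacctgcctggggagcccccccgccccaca

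Of the clusters of leukocyte membrane, signalling and immune genes, 10 of 374 were members. IRF4, a transcription factor of activated B cells and plasma cells that HL cells are known to express, had 598 in each line. STAT3, a transcription factor downstream of cytokine receptors, had 468 in both L-540 and HDLM-2 and 547 in L-428. The cluster of IL2RG, the receptor chain shared by several interleukins, and CXorf65 had 218 in HDLM-2, then 233 in L-540, up to 314 in L-428. STAT3 and the cluster of IL2RG, of the cytokine pathways, had ratios of at most 1.44, with a pair of equal values in STAT3. CCR7, a chemokine receptor that guides lymphocytes to lymph nodes, had 398 in L-428, then 832 in L-540, up to 1348 in HDLM-2. IFITM1, an interferon-induced membrane protein, had 397 in L-428, then 1198 in L-540, up to 1416 in HDLM-2. LGALS1, which encodes the lectin galectin-1, had 285 in L-428, then 1046 in L-540, up to 1142 in HDLM-2. The order of the lines was the same in CCR7, IFITM1 and LGALS1 as in ID2, with ratios above 3. LSP1, an actin-binding protein of leukocytes, had 235 in L-428 and 382 in both L-540 and HDLM-2. CCND2, a D-type cyclin placed in the cell cycle list, had 558 in L-428 and 896 in both L-540 and HDLM-2, also with L-428 lowest. CDK2AP1, which binds the kinase CDK2, had 377 in L-540, then 381 in HDLM-2, up to 767 in L-428. CCNG1, a cyclin that p53 induces, had 211 in HDLM-2, then 369 in L-428, up to 427.7 in L-540. With CCND2 they were the members among 157 clusters of the cell cycle list, and they differed in the order of the lines. SRGN, the proteoglycan of secretory granules, was in no list and had 266 in L-540, then 317 in L-428, up to 988 in HDLM-2.

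Cell type markers were set beside these values. Of 9 markers of HL cells, CCR7, IRF4 and FSCN1 were members. TNFRSF8, which encodes CD30, the receptor by which HL cells are diagnosed, had 145 in L-428 and 158 in both L-540 and HDLM-2 and so missed the threshold. CCL17 and CCL22, chemokines of HL cells, exceeded 200 in HDLM-2 alone, with 233 and 535. FUT4, whose product makes the CD15 antigen of HL cells, had 21.3 in L-428 and 24.4 in both L-540 and HDLM-2. TRAF1, an adaptor of TNF receptors, had 18.6 in L-540, then 31.5 in HDLM-2, up to 116 in L-428. CD40, a receptor for T cell help, had 7.65 in L-540, then 10.1 in HDLM-2, up to 12.2 in L-428. FUT4, TRAF1 and CD40 thus stayed below 200 in every line. No cluster of the 6 B cell, 6 T cell, 7 myeloid and 4 red cell and platelet markers found here exceeded 200 in any line. Their summed intensities ran over the lines from 42.4 to 54.7 for B cells, from 41.7 to 46.6 for T cells, from 22.9 to 29.3 for myeloid cells and from 13.4 to 14.6 for red cells and platelets. CD79A, CD3D and MPO had 3.17, 1.48 and 6.39, each in every line, and a cluster of CD22 had the same 3.17. PAX5 and CD79B had the same 8.03 in every line, which was also the median of the named clusters in L-540 and HDLM-2. CD3G had 2.33 in every line, and the other cluster of CD22 had 2.33 in L-540 and L-428. The sums hold such values shared by different genes, which are not read as levels of expression. The highest of these markers were CD7, with 27.6 in both L-540 and L-428 and 28.9 in HDLM-2, and BLK. BLK had 9.29 in L-428, then 11.1 in HDLM-2, up to 27.0 in L-540.

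The ribosomal protein members were RPL8, RPL18, RPS25, RPS6 and clusters that RPL30, RPS20 and RPS29 share with other genes. RPL8 of the large subunit had 1421 in L-540, then 1639.7 in HDLM-2, up to 3744 in L-428. RPL18 of the same subunit had 1248 in L-428, then 2903 in L-540, up to 3309 in HDLM-2. L-428 was thus the highest line in RPL8 and the lowest in RPL18. The cluster of RPL30, also of the large subunit, and SNORA72 had 541 in L-540, then 656 in L-428, up to 689.8 in HDLM-2. RPS25 of the small subunit had 1134 in L-428, then 1824 in HDLM-2, up to 2017 in L-540. RPS6, the ribosomal protein phosphorylated by S6 kinases, had 363 in L-428, then 401 in HDLM-2, up to 609 in L-540. The median ratio of the 7 members was 2.22, and 3 lay within 2-fold. Of the translation factors, 6 of 72 clusters were members, all within 2-fold, and 4 of the 6 had 3 distinct values. EEF2, the factor that moves the ribosome along the message, shares its cluster with the small nucleolar RNA gene SNORD37 and had 656 in HDLM-2, then 751 in L-428, up to 1171 in L-540. EIF3H, a subunit of initiation factor 3, had 359 in L-540, then 437 in HDLM-2, up to 486 in L-428. EIF3L of the same factor had 309 in L-428 and 409 in both L-540 and HDLM-2, and EIF3K had 266 in HDLM-2, then 301 in L-540, up to 493 in L-428. The 3 subunits differed in the order of the lines. BTF3, a subunit of the complex that binds new polypeptides at the ribosome, had 266 in L-428, then 276 in HDLM-2, up to 353 in L-540.

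Messages of the translation machinery commonly begin with a C followed by a run of pyrimidines, the terminal oligopyrimidine tract through which mTOR signalling acts on their translation. The translation members with a cluster of their own and a promoter in the RefSeq table were RPL18, RPS25, RPS6, EIF3K and BTF3. Each has a C at the annotated start followed by at least 4 pyrimidines. EEF2, picked from the members with shared clusters, has such a start too. The starts of RPL30, RPS20, RPS29 and EIF4G2, which also share clusters, were not examined, and RPL8, EIF3H and EIF3L had no promoter in the table. The sequences are shown for this common start. They run from 30 bases before the start through 20 bases from it on, in GRCh38.p14, with the unbroken pyrimidine run that begins at the start in capitals.
RPL18 (chr19:48619159-48619208, minus strand): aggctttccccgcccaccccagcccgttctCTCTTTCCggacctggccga
RPS25 (chr11:119018324-119018373, minus strand): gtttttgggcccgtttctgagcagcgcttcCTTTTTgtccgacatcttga
RPS6 (chr9:19380217-19380266, minus strand): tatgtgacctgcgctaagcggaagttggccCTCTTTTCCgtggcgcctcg
EEF2 (chr19:3985444-3985493, minus strand): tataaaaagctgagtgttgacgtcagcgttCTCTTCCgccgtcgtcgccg
EIF3K (chr19:38619158-38619207, plus strand): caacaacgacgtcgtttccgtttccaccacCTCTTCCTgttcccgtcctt
BTF3 (chr5:73498412-73498461, plus strand): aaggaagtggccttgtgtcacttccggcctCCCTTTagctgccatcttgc
The run has 6 bases in RPS25 and BTF3, 7 in EEF2, 8 in RPL18 and EIF3K and 9 in RPS6. Such a start was present in 11.6% of the 147 promoters of single-gene members, in 4.07% of all 35116 promoters of the table and in 4.39% of the 16425 promoters of genes with a cluster of their own. Members of other lists had it too, among them HLA-DPB1, PGD, MTHFD2, SSR2 and TUBB. A match to these letters is a description and does not show a functional tract.

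Histones package DNA, and most of their genes are transcribed during DNA replication into messages without a poly(A) tail. The members were H1-4, the H3 genes H3C3, H3C2 and H3C10, the H2B genes H2BC14 and H2BC7 and the variant H2AZ1, 7 of 134 clusters in the list of histones and chromatin proteins. H3C3 had 957 in L-540, then 1118 in L-428, up to 1615 in HDLM-2. H3C2 had 461 in L-540, then 646 in L-428, up to 934 in HDLM-2. Both were lowest in L-540 and highest in HDLM-2, while H3C10 had 246 in each line. H2BC14 had 556 in L-540, then 1376 in HDLM-2, up to 2064 in L-428. H2BC7 had 430.4 in L-428, then 899 in HDLM-2, up to 914 in L-540. L-428 was therefore the highest line in one H2B gene and the lowest in the other. H2AZ1, which is expressed throughout the cell cycle, had 267 in L-540, then 607 in L-428, up to 720.2 in HDLM-2. Genes of one histone class are near-identical in their coding sequence, so the signal of a single gene is uncertain.

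The upstream sequences of the other 6 histone genes are shown because promoter elements recur within a class. They cover 125 bases before the annotated start and the first base, in GRCh38.p14, with TATAAA, with CCAAT on either strand (read as ATTGG where it lies on the other) and with the octamer ATTTGCAT in capitals.
H1-4 (chr6:26156204-26156329, plus strand): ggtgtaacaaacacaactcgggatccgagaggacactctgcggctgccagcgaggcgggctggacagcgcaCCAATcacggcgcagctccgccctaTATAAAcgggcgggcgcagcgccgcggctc
H3C2 (chr6:26032099-26032224, minus strand): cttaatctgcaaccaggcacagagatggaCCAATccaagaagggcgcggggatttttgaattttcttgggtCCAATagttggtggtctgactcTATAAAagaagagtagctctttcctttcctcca
H3C10 (chr6:27809926-27810051, plus strand): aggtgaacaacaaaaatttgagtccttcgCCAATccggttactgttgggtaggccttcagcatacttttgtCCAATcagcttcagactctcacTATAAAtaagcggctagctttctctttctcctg
H3C3 (chr6:26045259-26045384, plus strand): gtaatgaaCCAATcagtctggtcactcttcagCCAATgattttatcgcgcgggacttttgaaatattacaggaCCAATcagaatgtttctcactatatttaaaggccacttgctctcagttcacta
H2BC7 (chr6:26199391-26199516, plus strand): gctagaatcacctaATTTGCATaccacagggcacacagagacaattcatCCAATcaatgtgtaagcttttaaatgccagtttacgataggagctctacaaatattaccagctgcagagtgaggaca
H2BC14 (chr6:27814897-27815022, plus strand): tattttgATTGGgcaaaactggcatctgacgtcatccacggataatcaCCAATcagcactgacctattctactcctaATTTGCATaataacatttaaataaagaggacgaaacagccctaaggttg
In H1-4, H3C2 and H3C10 a CCAAT box begins 54 bases before the start, and TATAAA begins 29 bases before it in H1-4 and 32 in the H3 genes. H3C3 has CCAAT boxes at 52, 93 and 117 bases. The octamer, known as the site bound by OCT1 in H2B promoters, begins 111 bases before the start of H2BC7 and 48 bases before that of H2BC14. Among the single-gene members it occurred elsewhere only at TRMT112, a partner of methyltransferases. It was in 2.72% of the members' promoters and in 1.77% of all promoters of the table. CCAAT was in 40.1% against 34.6% and TATAAA in 12.9% against 11.5%.

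Further motifs were counted in the same windows, from 250 bases before to 50 after the start and on both strands, none of which contains another. GGGCGG, the motif of SP1, was in 76.2% of the members' promoters, in 45% of all promoters and in 57.8% of those of genes with a cluster of their own. CCGGAAG, a motif of ETS factors, was in 20.4%, 10.3% and 12.7% in the same order. A palindromic motif of NRF1, a regulator of nuclear genes for mitochondria, was in 4.76%, 1.24% and 1.49%, and the 7 members with it were ATP5F1C, DAD1, LDHA, MTPN, POLR2H, SUMF2 and TMEM109. A gene can have several promoters, and 108 of the 132 single-gene members had one in the table.

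The pathway from the endoplasmic reticulum to the cell surface and the lysosome had 9 members of 255 clusters. The cluster of ATP6V0E1, a subunit of the proton pump, and SNORA74B had 1317 in L-540, then 1669 in L-428, up to 1732 in HDLM-2. SSR2, part of the complex at the translocation channel, had 712 in both L-540 and HDLM-2 and 712 in L-428. LAPTM4A, a membrane protein of lysosomes, had 764 in both L-540 and L-428 and 777 in HDLM-2. SSR2 and LAPTM4A each had a pair of equal values, so equal expression is not read from their narrow ratios. STT3A, a catalytic subunit of the enzyme that attaches sugar chains to proteins, had 205 in HDLM-2, then 249 in L-540, up to 389.8 in L-428. STT3B, the alternative subunit, had 212 in HDLM-2, then 268 in L-540, up to 332 in L-428. DAD1 of the same enzyme had 319 in L-540, then 472 in HDLM-2, up to 952 in L-428. All 3 were highest in L-428. TMBIM6, a membrane protein of the endoplasmic reticulum that inhibits cell death, had 688 in HDLM-2, then 826 in L-540, up to 943 in L-428. TMED2, a carrier protein of vesicles, had 385 in HDLM-2, then 459.8 in L-540, up to 1013 in L-428. LMAN2, a lectin that accompanies cargo, was in no list and had 1065 in L-540, then 1565 in L-428, up to 2531 in HDLM-2.

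Of the chaperones and folding enzymes, 4 of 131 clusters were members. HSPA8, the constitutive HSP70, had 829.5 in HDLM-2, then 2587 in L-428, up to 3387 in L-540. CANX, the membrane-bound lectin chaperone calnexin, had 813 in HDLM-2, then 921 in L-540, up to 1581 in L-428. CALR, its soluble relative calreticulin, had 601 in each line. HDLM-2 was the lowest line in HSPA8 and CANX, as it was in the cluster of PPIB, a cyclophilin of the endoplasmic reticulum, and SNX22, which had 220.0 in HDLM-2, then 398 in L-540, up to 558 in L-428.

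Among the 220 clusters of splicing and RNA-binding proteins, 4 were members. HNRNPAB had 511 in L-540, then 535 in HDLM-2, up to 1016 in L-428. PTBP1, a repressor of splicing, had 290.4 in both L-540 and HDLM-2 and 376 in L-428. The cluster of HNRNPK and MIR7-1 had 209 in HDLM-2, then 264 in L-540, up to 521 in L-428. These 3 clusters, unlike PCBP2, were highest in L-428. The same held for POLR2H, a subunit of the RNA polymerases, which was in no list and had 311 in L-540, then 314 in HDLM-2, up to 1156 in L-428. TUBB, a beta tubulin, had 416 in L-540, then 571 in HDLM-2, up to 1259.8 in L-428. The cluster of TUBB4B, a close relative, and GRIN1 had 278 in L-540, then 471 in L-428, up to 631 in HDLM-2. The tubulin clusters thus differed in the highest line. NUTF2, which carries RAN into the nucleus, had 217 in L-428, then 284 in L-540, up to 376 in HDLM-2. UBE2Z, an enzyme that conjugates ubiquitin, had 269 in L-428 and 281 in both L-540 and HDLM-2 and was with PSMB4 the only member of 142 clusters of the proteasome and ubiquitin list.

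Metabolic enzymes and carriers had 6 members of 354 clusters. OAZ1, the antizyme that lowers polyamine synthesis, had 882 in L-540, then 920.0 in HDLM-2, up to 1235 in L-428. SLC38A1, a glutamine carrier, had 325 in HDLM-2, then 462 in L-540, up to 528 in L-428. PGD, of the pentose phosphate pathway, had 274 in HDLM-2, then 458 in L-540, up to 681 in L-428. L-428 was the highest line in each. SHMT2, of the mitochondrial folate pathway, had 263 in L-540, then 318 in HDLM-2, up to 699 in L-428. MTHFD2, which follows SHMT2 in this pathway, had 210.4 in HDLM-2, then 476 in L-540, up to 793 in L-428. SRM, which forms spermidine, had 257 in both L-540 and HDLM-2 and 561 in L-428. L-428 was the highest here too, as it was in 69 of the 162 members, and the median ratio of the 6 metabolic members was 2.34.

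Of the redox and iron list, 4 of 56 clusters were members. MGST3, a microsomal glutathione transferase, had 506 in L-428, then 559 in L-540, up to 1983 in HDLM-2. SELENOT, a selenoprotein of the endoplasmic reticulum, had 277 in both L-540 and HDLM-2 and 477 in L-428. TFRC, the transferrin receptor for iron uptake, had 211 in L-428, then 223 in L-540, up to 334 in HDLM-2. SELENON, another selenoprotein of this compartment, had 264 in L-428, then 683 in L-540, up to 956 in HDLM-2, a ratio of 3.62. HDLM-2 was the highest line in MGST3, TFRC and SELENON and L-428 in SELENOT. Calcium-binding and 14-3-3 proteins had 3 members of 46 clusters. The cluster of the 14-3-3 gene YWHAQ and its pseudogene had 1468 in L-428 and 1672 in both L-540 and HDLM-2. S100A10, the partner of annexin A2, had 857 in L-428, then 1177 in HDLM-2, up to 1900.0 in L-540.

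The other 53 members were in no list, with lowest values from 202 to 1065 and a median ratio of 1.96. CSTB, an inhibitor of lysosomal proteases, had 822 in each line. TRMT112 had 600.0 in L-428, then 709 in HDLM-2, up to 848 in L-540. EMP3, a membrane protein of the PMP22 family, had 567 in HDLM-2 and 597 in both L-540 and L-428. All 3 lay within 1.5-fold, with 3 equal values in CSTB and a pair of equal values in EMP3. GABARAP and BNIP3L act in autophagy, and GABARAP had 389.8 in HDLM-2, then 542 in L-540, up to 1029.7 in L-428. BNIP3L had 282 in HDLM-2, then 470.4 in L-428, up to 482 in L-540. ELOVL1, which lengthens very long fatty acids, had 325 in HDLM-2, then 345 in L-540, up to 402 in L-428. CERS2, a ceramide synthase, had 226 in L-428 and 281 in both L-540 and HDLM-2. These lipid enzymes had ratios of 1.24, with a pair of equal values in CERS2. TUG1, a long non-coding RNA, had 370.1 in L-428, then 396 in HDLM-2, up to 506 in L-540, without the high value in L-540 alone that MALAT1 had. MAPK3, the kinase ERK1, had 231 in both L-540 and HDLM-2 and 258 in L-428. Some unlisted members are known mainly from other tissues. KRT8, a keratin of simple epithelia, had 295 in L-428, then 419 in HDLM-2, up to 615 in L-540. RYR3, a calcium release channel known from brain and muscle, had 244 in L-428, then 308 in L-540, up to 369 in HDLM-2.

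Of 18 commonly used reference genes, 13 had a cluster named here, and ACTB, PGK1, TUBB and TFRC were members. SDHA, a subunit of succinate dehydrogenase, had 191 in L-428, then 251 in L-540, up to 479 in HDLM-2 and missed the threshold in L-428 alone. HPRT1, an enzyme of purine salvage, had 14.9 in L-540, then 15.8 in HDLM-2, up to 187 in L-428, a ratio of 12.6. PPIA, the cyclophilin A gene, had 8.93 in L-540 and 11.7 in both L-428 and HDLM-2. The cluster of EEF1A1, the main elongation factor, and a pseudogene had 11.8 in HDLM-2, then 12.5 in L-540, up to 20.6 in L-428. TBP, POLR2A, GUSB and the clusters of YWHAZ also stayed below 200 in every line, with lowest values of 24.97, 20.9, 27.0, 20.7 and 5.89. PPIA and EEF1A1 are known for abundant messages, and yet their signals were near the median of the named clusters, which was 9.12 in L-428 and 8.03 in the other lines. A gene outside the set is therefore not read as weakly expressed.

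**Figure D4:**
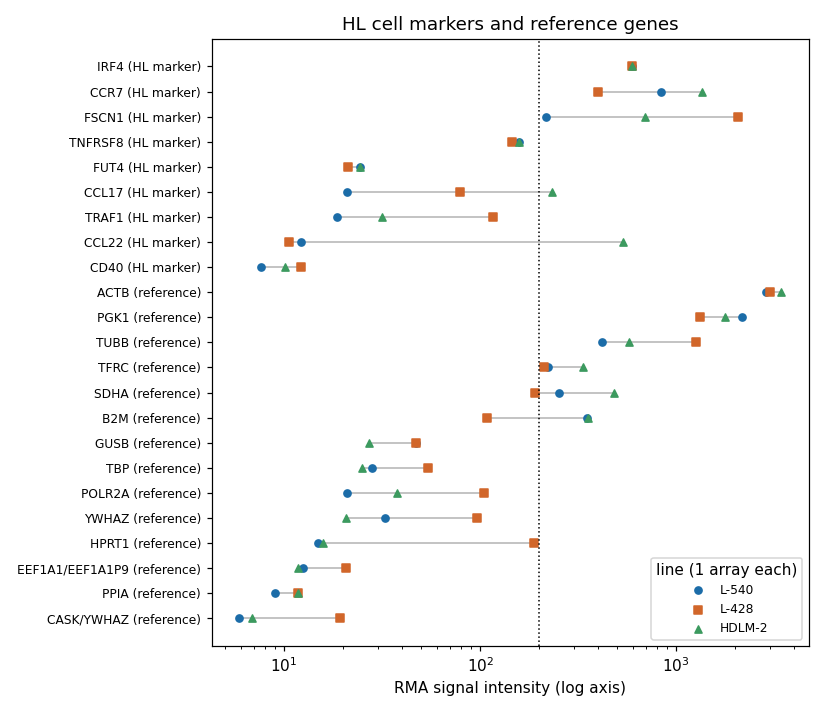
RMA signal intensity (log axis) of 9 HL cell markers and of the clusters of 13 reference genes, with 1 point per line and array, a grey bar over the range and a dotted line at the threshold of 200. IRF4, CCR7, FSCN1, ACTB, PGK1, TUBB and TFRC lie wholly above 200, while PPIA and EEF1A1 lie below 25.

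A second cluster of the same gene is a readout that the rule did not use. Only 3 single-gene members had one, and it stayed below 200 in all lines. That of RPS25 had 18.6 in L-428, then 86.5 in HDLM-2, up to 116 in L-540, with L-428 lowest as in the member. That of ZNF706 had 1.39 in L-540, then 10.1 in HDLM-2, up to 11.5 in L-428, with L-428 highest as in the member. That of BRK1 had 2.09 in L-428 and 2.23 in both L-540 and HDLM-2, with L-428 lowest, whereas it is highest in the member. Which cluster follows the RNA of the gene was not tested.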

How the data were processed

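The intensities were deposited by the authors as 1 value table with a column per line. Per the submitters' processing notes, the authors summarised exon array probes to transcript clusters by RMA in Affymetrix Expression Console, with annotation on hg18, and the values are linear signal intensities. The deposited columns still differed as whole arrays, with medians over all clusters of 7.16 for HDLM-2, 7.41 for L-540 and 9.18 for L-428. All 3 columns were used and 0 were left out. Symbols came from the platform annotation. For 14404 of 14432 single symbols the Entrez ID was found in RefSeq, from which the current symbol was taken. All 162 member symbols stayed the same.

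Clusters above 200 in each line were taken with Python 3.11.15, pandas 2.3.3 and numpy 2.4.6, and plotted with matplotlib 3.10.9. The selection of members and their ratios was checked on simulated data. With 1 array per line no test was run. Members and lists were chosen with earlier results of these data known. The mitochondrially encoded genes became a list of their own, TFRC joined the iron list and the octamer was searched after values were seen. Named were the first 25 members, 4 per list, the 10 narrowest and 10 widest, 5 on each side of the threshold and the reference genes, and further members for their function after their values were seen. The alternatives were thresholds of 100, 150, 300 and 400, other scalings, an offset of 50 and leaving out each line.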

Additional observations from a re-analysis of the deposited data

Results flagged for a closer look

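Clusters without a gene symbol, which the report does not describe, exceeded 200 in each of the 3 lines in 458 cases, 8.86% of the 5171 unnamed clusters. They were 73.9% of all 620 clusters above 200 in each line, and named clusters were only 15 of the first 100. The lowest value of an unnamed cluster reached 4686, above that of any named member, with a median of 520.4. Their median ratio of the highest to the lowest line was 1.71, and 446 of the 458 had 3 distinct values.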

How the results depend on the processing

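The number of members was 405 at a threshold of 100, 242 at 150, 94 at 300, 62 at 400 and 620 with unnamed clusters included. At 100 the median ratio was 1.66, with 43.5% of the members within 1.5-fold and 63.0% within 2-fold. Over members with 3 distinct values these were 2.10, 18.2% and 42.1%. With an offset of 50 added to each signal, 63.0% lay within 2-fold. Leaving out each line in turn gave 191 to 218 clusters, a median ratio of 1.22 to 1.47, 51.4 to 71.2% within 1.5-fold and 70.9 to 85.9% within 2-fold. The values farthest from those of all lines were found without L-428, with 1.22, 71.2% and 85.9%. After quantile normalization 152 clusters passed, of which 139 were members, and after scaling to one median 166 passed, of which 155 were members, with median ratios of 1.87 and 1.94. All 162 member symbols were the same before and after the lookup of current symbols, so the counts of the 21 lists could not move with the symbols used. No paired analysis was possible because no line had more than a single array. Intensities near the median of an array do not show that a gene is silent.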
